A study of Mus musculus with 5 samples.

Results

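Aadat encodes the mitochondrial aminotransferase known as kynurenine aminotransferase II or alpha-aminoadipate aminotransferase. It was 1 gene of 49997 in the RefSeq table used here, and its window held 36 of the 186413 peak regions of the series. The window was the stretch of chromosome 8 from 62960000 to 63060000 in the deposited coordinates, taken as mouse build mm9. It was chosen by its kidney reads, which were at least 4 times those of every other tissue over a run of regions from 62988281 to 63026801, so the kidney excess over that run is given as a description only. The labels do not name a build and the files hold no gene names. On chromosome 7 the reads reached position 152524509, while the last gene that the GRCm38 table places there ends at 145324059. Chromosome lengths were not compared, so another build is likely but was not shown. The placing of Aadat rests on the coordinates being mm9.

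Chromatin immunoprecipitation and sequencing gave the positions of RNA polymerase II in brain, kidney, liver, lung and spleen freshly dissected from adult FVB mice, an inbred strain, with no treatment named in the labels. Every tissue had 1 library, made with the same antibody from Abcam, so nothing here was tested between tissues and no spread between animals was measured. The stated aim was a survey of active promoters across the tissues. The libraries held from 10292262 (brain) to 14964934 (liver) aligned reads, with 13786536 in kidney. Each sample was whole tissue, so fewer cells of a type and less polymerase per cell cannot be told apart. No annotation of the build was used, so the tissue labels were not checked against marker genes.

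The enzyme transfers amino groups from 2-aminoadipate, on the breakdown route of lysine, and from kynurenine, on that of tryptophan, where it makes kynurenic acid. Kidney and liver are organs known for amino acid breakdown, and brain kynurenic acid acts on glutamate receptors. RNA polymerase II gathers at a start site before it is released into the gene, so reads at a promoter and reads along a gene body report different steps. In the order of genes of GRCm38, Aadat lies between the pseudogene Gm19230 and the long noncoding RNA Gm34730, and the next protein-coding gene after it is Mfap3l.

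The RefSeq promoter of Aadat is shown because the results compare promoter and gene body. The sequence spans 250 bases before to 50 after the annotated start, on the plus strand of GRCm38.p6. It was not placed in the deposited coordinates, where the promoter position was set from the peaks instead. Capitals mark matches to the motifs searched:
Aadat promoter: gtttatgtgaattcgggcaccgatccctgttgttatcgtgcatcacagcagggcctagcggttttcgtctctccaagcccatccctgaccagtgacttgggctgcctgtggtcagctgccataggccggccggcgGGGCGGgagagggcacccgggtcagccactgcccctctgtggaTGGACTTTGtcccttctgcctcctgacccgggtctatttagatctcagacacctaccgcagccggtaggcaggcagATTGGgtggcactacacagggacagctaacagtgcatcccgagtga

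Both strands were searched for 5 motifs, none of which overlapped another. The GC box GGGCGG began 115 bases before the annotated start, and 35.7% of 32851 RefSeq promoters of this length hold it. A match to CAAAGTCCA, a core recognised by the liver- and kidney-enriched factor HNF4, lay on the minus strand, where it is printed as TGGACTTTG from 72 bases before the start, and 0.475% of promoters hold it. CCAAT was matched on the minus strand (ATTGG) from base 5 after the start, against 37.4% of promoters. TATAAA and the HNF1 half-site GTTAAT had no match in this window, and 13.6% and 7.10% of promoters hold them. The sequence held 14 CpG dinucleotides against a median of 7 over all promoters, and 60.3% of its bases were G or C against a median of 52.7%. These letters are a description of the sequence, and binding of any factor was not measured.

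The window held polymerase at the promoter in several tissues, and along the gene mostly in kidney. A promoter peak was listed in brain, kidney, liver and lung, whereas every other peak of the window was a kidney peak. At the promoter, kidney exceeded liver by 1.71-fold (95% interval 1.27 to 2.32), and along the gene body by 11.5-fold (10.1 to 13.2). Intervals here are exact and cover counting error of the reads only. Because the body is nearly the stretch picked for its kidney reads, the second fold is large by choice. The first fold takes in reads on the gene side of the promoter. From 250 to 499 bp past its centre kidney had 37 reads and liver 8, against 38 and 31 in the 250 bp before it. The promoter position was in turn set where the most tissues had a peak, so the presence of peaks there and a promoter density above the flanks follow in part from that choice.

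The authors' peak lists gave 40 positions in the window for kidney, 1 each for brain, liver and lung, and 0 for spleen. Extended by 250 bp to both sides and merged, they formed 36 regions. The region from 62984591 to 62985331 had a peak in 4 tissues, and its centre, 62984961, served as the promoter position by a rule that used the peaks: the region with peaks in the most tissues near the start of the run. Relative to this centre, the peak lay 120 bp before it in brain, 25 bp before it in liver, 20 bp before it in lung and 120 bp after it in kidney. The run began 3.32 kb after the centre and ended 41.84 kb after it. Kidney had 37 peaks in the run, spaced by a median of 750 bp with gaps from 350 to 4420 bp, against a median spacing of 2250 bp over its whole list. The other lists had 0 peaks in the run, and a missing peak does not mean that reads were missing, since no source used here gives the threshold of the lists.

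**Figure D1:**
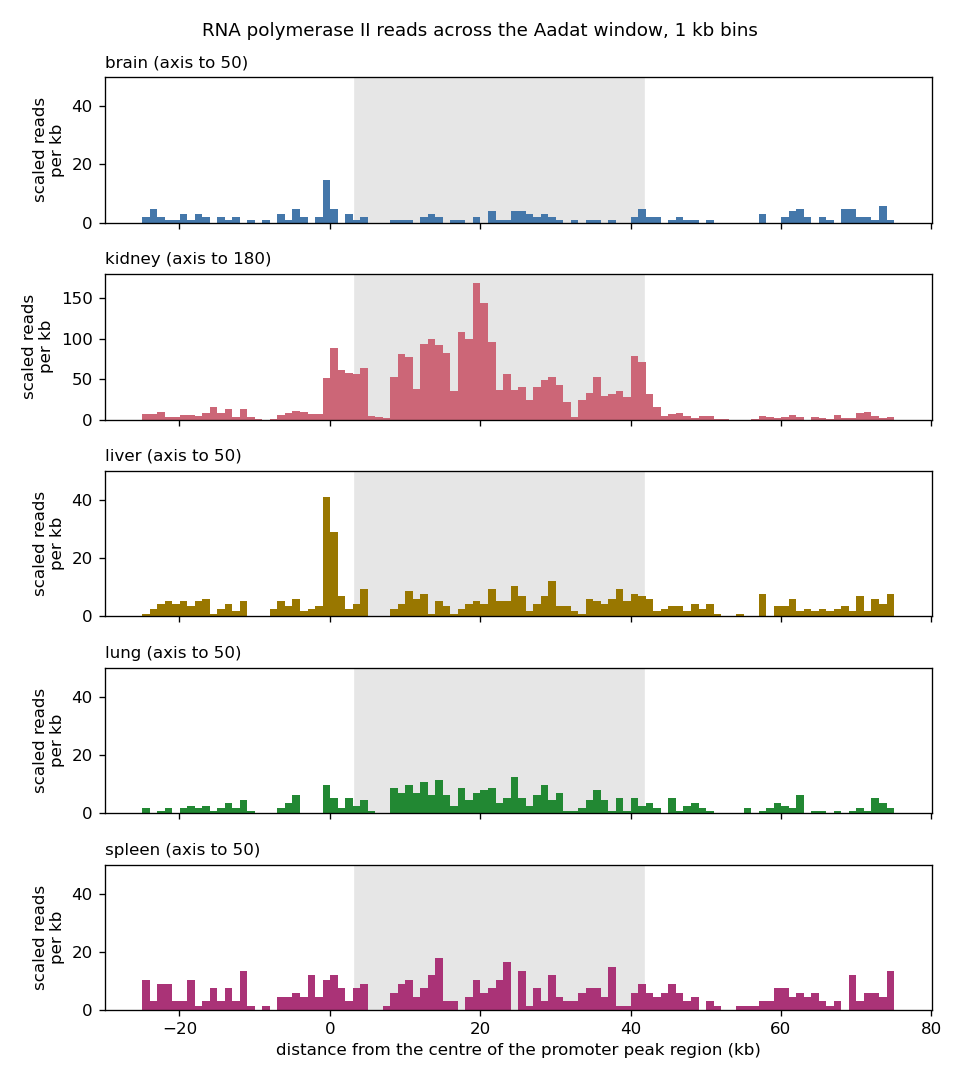
Reads per 1 kb bin, scaled between libraries, against the distance from the centre of the promoter peak region in kb, with 1 panel per tissue and the kidney run shaded; the kidney axis is longer than the axis shared by the other panels, as printed above each. Kidney reads extend from the promoter to a little past the end of the run, liver stands out at the promoter alone, and the lung bars rise slightly inside the shaded stretch.

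Within 500 bp of the promoter centre, kidney had 120 reads, liver 75, brain 18, lung 16 and spleen 11. After scaling on regions shared by all tissues, this came to 110 reads per kb for kidney (95% exact Poisson interval 91.1 to 131) and 64.1 for liver (50.5 to 80.4). Brain stood at 17.4 (10.3 to 27.5), spleen at 16.4 (8.18 to 29.3) and lung at 14.1 (8.06 to 22.9). Kidney was therefore highest and liver next, and the intervals of these libraries did not overlap those of brain, lung or spleen. The order among brain, lung and spleen was not resolved at this depth. Liver exceeded brain 3.68-fold (2.18 to 6.55), lung 4.55-fold (2.63 to 8.36) and spleen 3.91-fold (2.07 to 8.17), the last becoming 6.05-fold (3.20 to 12.6) with libraries scaled by total reads.

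Each library was also set against its own flanks, the parts of the window more than 1 kb before the promoter centre or more than 3 kb after the run. The promoter density was 23.5 times that of the flanks in kidney (18.8 to 29.3) and 21.4 times in liver (16.1 to 28.0). These libraries did not differ in this measure beyond counting error, but the kidney flanks were themselves denser. Kidney over liver was 1.55 in both flanks together (1.29 to 1.88), at 2.03 upstream and 1.13 downstream. The similar ratios therefore do not stand for similar promoter densities. It was 11.2 times in brain (6.34 to 18.7) and 8.66 times in lung (4.77 to 14.8). Spleen, which had no peak listed, stood at 3.52 times its flanks (1.73 to 6.46), from 11 reads. Of these, 6 lay 250 to 499 bp past the centre, so a spleen signal at the centre itself was not resolved.

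The merged promoter region, 97 kidney reads against 69 liver reads, was 1.50-fold higher in kidney (1.09 to 2.08). Among the 18458 regions of the genome that had a peak in both tissues and at least 20 reads in both, the median kidney-over-liver ratio was 0.973, with quartiles 0.691 and 1.30, and 84.4% of regions lay at or under the value of Aadat. A ratio of at least 4 was reached by 0.412% of these shared regions.

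Read positions on the strands had the order given by fragments centred on a bound site. The median 5′ end of minus-strand reads lay downstream of that of plus-strand reads by 214 bp in kidney (62 plus and 58 minus reads) and by 227 bp in liver (37 and 38). Kidney reads in this stretch lay more toward the gene than liver reads, with the plus-strand median 39.5 bp before the centre in kidney and 104 bp before it in liver. The stretch takes in the gene side, where kidney reads continued, so a shift of the promoter peak itself cannot be told apart from body reads.

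Kidney and liver parted within 1 kb of the promoter centre. In the 250 bp before the centre there were 38 kidney reads and 31 liver reads, and in the 250 bp after it 36 and 23. From 250 to 499 bp kidney still had 37 reads and liver 8. From 750 to 999 bp kidney had 17 reads and liver 1, from 1000 to 1249 bp 18 and 2, and from 1250 to 1499 bp 18 and 0. Brain had 9 of its 18 promoter reads in the outermost 250 bp before the centre, and at most 2 reads in any 250 bp from the centre to 3999 bp past it.

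**Figure D2:**
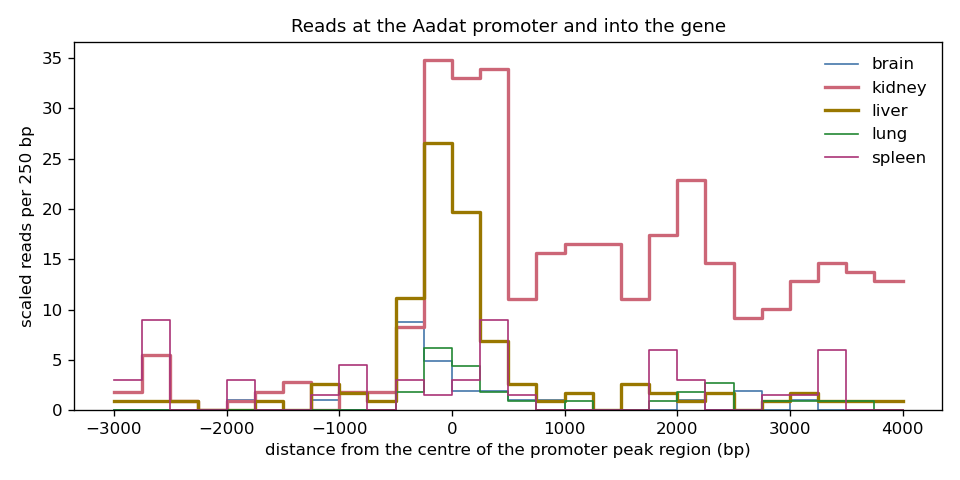
Scaled reads per 250 bp against the distance in bp from the centre of the promoter peak region, with 1 line per tissue. Kidney and liver rise together at the centre, and past 500 bp liver has at most 3 reads per 250 bp before scaling while kidney has at least 10.

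The gene body, from 1 kb past the promoter centre to the end of the run, spanned 40.8 kb. There, 2498 reads were counted in kidney, 242 in lung, 232 in liver, 174 in spleen and 55 in brain. The scaled density was 56.0 reads per kb in kidney (53.9 to 58.3), 6.35 in spleen (5.44 to 7.37), 5.23 in lung (4.59 to 5.93), 4.86 in liver (4.26 to 5.53) and 1.30 in brain (0.983 to 1.70). Kidney stood far above all others and brain below all others. The order among liver, lung and spleen depends on the scaling. By total reads, lung came to 6.83, liver to 4.75 and spleen to 4.01 reads per kb, which puts liver above spleen.

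Against its own flanks, which is free of scaling, the body density was 12.0 times as high in kidney (10.6 to 13.6), for which the run was chosen, and 3.21 times in lung (2.53 to 4.09). Liver was at 1.62 times (1.33 to 1.97) and spleen at 1.37 times (1.10 to 1.70). Brain was at 0.838 times (0.587 to 1.19), an interval that includes 1. Lung thus had a body signal above its surroundings, and brain had none detectable at this depth. Both had a listed promoter peak, and their promoters did not differ beyond counting error, with lung over brain at 0.810 (0.386 to 1.68). With the bins that held under 10 reads in all 5 libraries together left out, lung was at 2.76 times (2.17 to 3.54), liver at 1.40 times (1.15 to 1.71) and spleen at 1.20 times (0.960 to 1.50), so the spleen value was then not separated from 1. Lung bins in the body had a median of 6 reads, from 0 to 14, against 1.5 in the flanks.

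The density at the promoter over that in the body was higher in liver and brain than in the other tissues. With the promoter taken as 500 bp to both sides of the centre, the intervals of these 2 groups did not overlap. It was 13.2 in liver (10.0 to 17.2) and 13.4 in brain (7.38 to 23.1), against 1.96 in kidney (1.62 to 2.35), 2.70 in lung (1.52 to 4.47) and 2.58 in spleen (1.26 to 4.73). With 250 bp to both sides, brain was at 10.4 (3.99 to 22.8), lung at 4.04 (2.06 to 7.19) and spleen at 1.41 (0.287 to 4.18). The brain interval then overlapped those of lung and spleen, and the spleen interval included 1. No background was subtracted. Body reads per kb were 15.3 times the genome's median bin in kidney, 1.98 in lung, 1.14 in liver, 0.852 in spleen and 0.449 in brain. Similar ratios in kidney and spleen thus do not stand for similar body signals. The liver ratio was 6.73 times the kidney ratio (4.82 to 9.34), which does not depend on the scaling between libraries. It equals kidney over liver in the body divided by that at the promoter, so it too is large by the choice of the run. The liver ratio was also 4.89 times that of lung (2.72 to 9.24). In the body, liver over lung was 0.930 (0.773 to 1.12), or 0.695 (0.578 to 0.835) with libraries scaled by total reads. The rule that chose the run held both tissues under kidney, and the promoter was set where both had a peak. The comparison of liver with lung is therefore not free of those choices. Liver and brain did not differ in the ratio beyond counting error, at 0.988 (0.531 to 1.90), while their levels differed 3.73-fold in the body (2.77 to 5.10). In kidney 83.3% of the reads of the window lay in the body, in lung 66.3%, in spleen 47.0%, in liver 44.8% and in brain 32.9%, against 40.8% of the window's length.

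**Figure D3:**
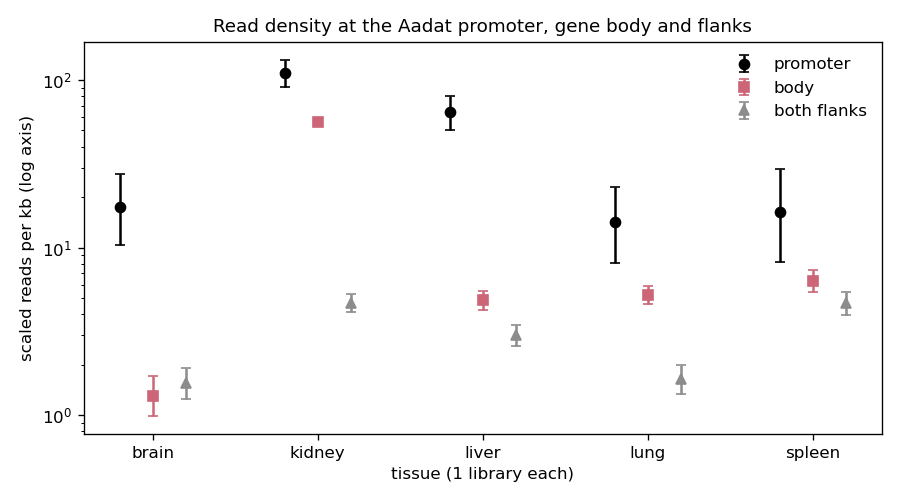
Scaled reads per kb (log axis) at the promoter, in the gene body and in the flanks for each tissue, with 95% exact Poisson intervals that cover counting error only. Promoter and body lie 1.96-fold apart in kidney and 13.2-fold apart in liver, and the brain body lies at the level of its flanks.

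Along the run, kidney reads were not evenly spread. In 4 equal sections of 9.63 kb from the promoter side on, kidney had 491, 1037, 417 and 407 reads. Liver had 48, 44, 67 and 60, and lung had 56, 77, 61 and 39. The second section, 12.95 to 22.58 kb past the promoter centre, was the densest in kidney and had the fewest liver reads, although 44 and 48 liver reads do not differ beyond counting error. Kidney over liver was 10.9 (8.13 to 15.1), 25.2 (18.7 to 34.9), 6.66 (5.14 to 8.76) and 7.26 (5.53 to 9.69) in the 4 sections. The interval of the second section did not overlap those of the other sections. This depends on the cut. In 8 sections, the third (31.9, 18.8 to 58.8) stayed apart from the second (11.5, 8.10 to 16.9). The fourth (22.1, 15.3 to 33.1) overlapped it. As kidney reads chose the run, these folds are a description. Kidney over lung ran from 7.10 (5.42 to 9.45) in the third section to 14.0 (11.1 to 17.9) in the second.

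**Figure D4:**
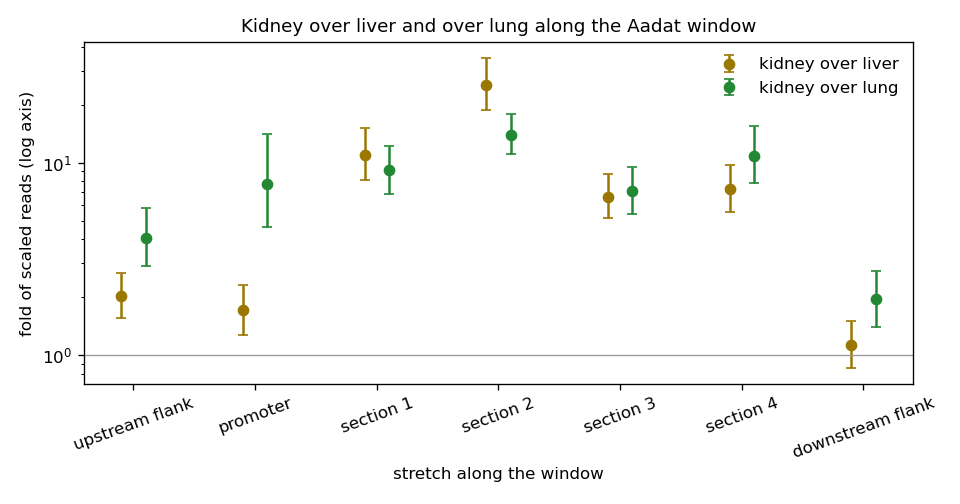
Kidney over liver and kidney over lung (fold of scaled reads, log axis) in the upstream flank, at the promoter, in the 4 sections of the run and in the downstream flank, with 95% exact intervals for counting error. The liver comparison is 1.71-fold at the promoter and 25.2-fold in the second section, whereas the lung comparison is 7.79-fold already at the promoter.

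In 1 kb bins, kidney had a median of 53 reads in the run, from 2 to 184. Of the 39 bins of the run, 35 had at least 20 kidney reads, and kidney was at least 4 times each other tissue in 28 of them, with counts under 3 set to 3. Over all 1 kb bins of the genome with at least 20 kidney reads, 2.12% reached this. Against liver alone the count was 33, and 14.5% of the bins of the genome reached it. As kidney reads chose the run, nothing is read from these counts. Spleen was the next highest tissue in 17 of the 35 bins, lung in 10, liver in 7 and brain in 1. This order depends on the scaling on shared regions, which raises spleen. Spleen reads per kb in the run were 0.857 times the median 1 kb bin of its genome. Scaled by total reads, the run held 4.03 reads per kb in spleen, 4.75 in liver and 6.97 in lung.

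The bin with the most kidney reads ran from 63004001 to 63005000, near the middle of the run and 19.5 kb past the promoter centre. It held 184 kidney reads, against 2 in brain, 6 in liver, 8 in lung and 7 in spleen. The next bin, to 63006000, held 157, and the bins starting at 63002001, 62998001 and 63003001 held 118, 109 and 109. The bins with 184 and 157 reads exceeded the 120 reads within 500 bp of the promoter centre. The liver reads of the run had no such centre: the fullest bins held 14 and 12 liver reads and lay 29.5 and 24.5 kb past the promoter centre, and 3 bins tied at 11 reads lay 4.54, 21.5 and 38.5 kb past it. Across the 38 bins of the body with at least 10 reads in all libraries together, Pearson's r with kidney was 0.480 for lung, 0.0797 for liver, 0.239 for spleen and 0.118 for brain. The libraries were compared over the same bins, whose base composition and mappability were not measured, and the values are a description.

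Near the end of the run kidney reads rose once more, from 31 in the bin starting at 63024001 to 86 and 78 in the next bins. They then fell to 35, 17 and 5 in the 3 bins after, the last of which starts at 63029001. Liver had 6, 9, 8, 7, 2 and 3 reads in the same 6 bins. Kidney returned to 3.25 scaled reads per kb in the downstream flank (2.66 to 3.92), where kidney over liver was 1.13 (0.856 to 1.50). In the upstream flank kidney was denser, at 6.46 reads per kb (5.53 to 7.51), 2.03 times liver (1.56 to 2.66). This flank held 1 kidney peak, at 62969116, which lies 15.8 kb before the promoter centre and had 11 kidney reads in its region.

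In 3 of the 39 bins of the run, and in 16 of the 100 bins of the window, all 5 libraries together had fewer than 10 reads. The low kidney counts in the bins starting at 62990001, 62991001 and 62992001 (5, 3 and 2 reads) were matched by 0 or 1 read in each other library. Whether reads can be placed uniquely there was not tested.

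Of the 35 regions with a kidney peak alone, 29 had at least 20 kidney reads, and 24 of these met the 4-fold rule that chose the run, against 3.95% of all merged regions with at least 20 kidney reads. Nearest to the threshold were the region from 63018501 to 63019001, inside it at 4.10-fold over the floor of 3 reads in spleen with 20 kidney reads, and the region from 62996651 to 62997151, outside it at 3.98-fold over lung with 23 kidney reads. The region from 62986531 to 62987031, 1.82 kb past the promoter centre, was outside the rule at 3.48-fold over spleen, and 7.28-fold over liver. The run therefore starts later than the kidney body signal.

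The run was 1 of 91 kidney runs of at least 3 regions. It ranked 4 by span, 3 by number of regions, 5 by kidney reads, 2 by fold over the next highest tissue and 40 by scaled kidney reads per kb. The next highest tissue was spleen with the scaling on shared regions and lung with scaling by total reads, and the ranks were not recomputed with the latter. By Euclidean distance of the log2 ratios of the 4 other tissues to kidney, the most alike run lay on chromosome 19 from 12777006 to 12796206 (distance 0.785). It had 1274 kidney reads and was 6.89-fold over liver and 37.7-fold over brain. Next came chromosome 7 from 96574611 to 96577711 (0.840), with 142 kidney reads, and chromosome 15 from 89164691 to 89169396 (1.01), with 626. The profile was compared over 5 libraries only, and no gene was assigned to these runs.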

How the data were processed

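The authors deposited 2 files per tissue: aligned reads with chromosome, start, end and strand, and a list of single peak positions with no score. Bowtie was used per the submitters' processing notes. No source used here gives its settings, the peak caller, the genome build or a control. Per the labels' protocols, tissue was fixed with 1% formaldehyde for 10 min and chromatin sheared to 0.2 to 0.8 kb.

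Reads of 34 to 36 bases were counted at their 5′ end, so 4 to 15 lines per library were left out. Scaling factors were medians of ratios over the 8222 merged peak regions where no tissue had under 20 reads: 1.17 for liver, 1.13 for lung, 1.09 for kidney, 1.03 for brain and 0.671 for spleen. Factors from total reads differ from these on the log2 scale by 0.33 in brain, 0.39 in lung and -0.66 in spleen, and by under 0.1 in kidney and liver. Fold intervals are 95% exact conditional binomial intervals of raw counts. As the reads carry no molecular identifiers, they may not be independent molecules, and intervals cover counting error only. The shares of reads repeating a position and strand were 4.51% in kidney and 8.87% in liver.

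The window, the run, the measures and the motifs were chosen with earlier results of these data known. Named bins are the 5 of the run with the most kidney reads and the 3 with the most liver reads, with ties. Named regions are those with peaks in several tissues and those nearest the threshold. The runs named are the 3 most alike. The bins and regions at the ends of the run, the low bins and the upstream kidney peak were named after their values were seen, and the comparison of body with flanks was also added then. Bin calling and intervals were tried on simulated counts that held counting error only, so spread between animals or libraries was not covered. Alternatives covered scaling, repeated reads, read position, depth, background, bins, thresholds and stretch limits. The software was SciPy 1.17.1, NumPy 2.4.6, pandas 2.3.3 and, for plots, Matplotlib 3.10.9, under Python 3.11.15.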

Additional observations from a re-analysis of the deposited data

How the results depend on the processing

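With 22 values and 136 alternatives, 109 stayed within the interval of the value reported or within 1.5 times the count, 26 moved and 1 reversed. Some of the 109 could not change. Promoter over body within a library does not depend on scaling between libraries, and thinning leaves the reads of brain, the smallest library, as they were. Scaling by total reads reversed liver over spleen in the run, from 0.762 to 1.18, and moved kidney over lung to 7.94, kidney over spleen to 13.7 and liver over lung to 0.681. Over the whole window, kidney was 17.0-fold over brain, 6.20-fold over liver, 8.53-fold over lung and 4.98-fold over spleen, since the flanks dilute the run. With the genome's median bin subtracted, kidney over liver in the run was 89.1, kidney over lung 19.4 and liver over lung 0.218. The same subtraction gave 103 for promoter over body in liver and 50.7 for the liver ratio over the kidney ratio, because liver body reads lie close to that median. It gave no value for 6 comparisons whose brain or spleen reads in the run or body fell under the median. Bins with kidney at least 4 times each other tissue numbered 44 of 77 at 500 bp and 18 of 19 at 2 kb, against 28 of 39 at 1 kb, and 10 of 39 at 8-fold. Against liver they numbered 51 of 77 and 18 of 19, against 33 of 39. With the promoter cut to 250 bp on both sides, promoter over body was 2.41 in kidney and 19.0 in liver. With 1 kb it was 1.25 in kidney, 7.21 in liver and 1.43 in lung. Body over flanks in kidney was 8.67 against the upstream flank, 17.3 against the downstream flank and 10.3 without low bins, alternatives chosen after seeing the data. In 8 sections, the densest kidney section was 4.96 times the sparsest, against 2.55 in 4. The sparsest of the 8 held all 3 bins of the run with under 10 reads in all 5 libraries together, which lowers its density. Removing repeated reads, shifting reads by 100 bp and thinning to the smallest library moved none of the values they were applied to. No paired analysis was possible because each tissue had 1 library. Depth limits brain, lung and spleen at the promoter, with 11 to 18 reads each.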
